A study of Homo sapiens with 6 samples.

Results

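KLK5, KLK6, KLK7, KLK8, KLK10 and KLK11 are kallikrein-related peptidases that have been studied as products of ovarian carcinoma. These 6 genes were taken by name and matched to their Ensembl identifiers among the 63677 identifiers of the count table, and all 6 were found. RNA-seq of polyA RNA was done in UWB1.289, a human ovarian carcinoma cell line that is BRCA1-deficient by the study's description and carries the genotype label WT. In all, 3 samples were exposed to the PARP inhibitor Olaparib for 24 h, 3 samples received the vehicle dimethyl sulfoxide (DMSO) for 24 h, and all 6 came from this 1 line in culture. The dose was 4 µM by the sample labels and the study's methods and 10 µM by the text on the series' design.

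Kallikreins are secreted serine proteases that are made as inactive proforms and start to cut once a short propeptide is removed by another protease, often a fellow kallikrein. Their genes lie side by side in a cluster on chromosome 19, and the enzymes cut proteins of the cell surface and matrix as well as protease-activated receptors, while SPINK, SPINT and serpin proteins hold serine proteases in check. In ovarian carcinoma several kallikreins have been followed as secreted markers because healthy ovary makes little of them. Olaparib blocks PARP enzymes, which act in the repair of DNA breaks, and the comparison asks how transcripts respond to that block in cells that lack BRCA1.

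All 6 members are on the minus strand of chromosome 19 (GRCh38, GENCODE 44 gene models). KLK5 spans 50943303 to 50953093, KLK6 spans 50958631 to 50969673 and KLK7 spans 50976468 to 50984099. KLK8 spans 50996007 to 51002711, KLK10 spans 51012739 to 51020175 and KLK11 spans 51022216 to 51028039. What the members share at the DNA level is shown by the stretch of 30 coding bases around the catalytic serine codon, which carries the chemistry of the family. It lies in the last exon of each gene, exon 7 of 7 in KLK6 and exon 6 of 6 in the others. The stretches sit at chr19:50943757-50943786 in KLK5, chr19:50959287-50959316 in KLK6, chr19:50977662-50977691 in KLK7, chr19:50996185-50996214 in KLK8, chr19:51014923-51014952 in KLK10 and chr19:51022668-51022697 in KLK11. They are written 5′ to 3′ on the coding strand, with the serine codon in capitals:
KLK5: ggtgatTCTggggggcctgtggtctgcaat
KLK6: ggtgatTCTgggggtccgctggtatgtgga
KLK7: ggtgacTCAgggggaccgttggtgtgcaga
KLK8: ggcgatTCTggaggccccctggtgtgtgat
KLK10: agtgacTCTggaggccccctggtctgtgac
KLK11: ggtgacTCCgggggccctctggtctgtaac
Across the 6 members 17 of the 30 positions held the same base, and pairs shared between 19 bases (KLK7 with KLK8 and with KLK10) and 25 bases (KLK10 with KLK8 and with KLK11). The genes are related in sequence but can largely be told apart by reads. Of all stretches of 50 bases in the canonical transcript, the share that also occurred in the transcripts of another gene was 0% in KLK11, 1.31% in KLK7, 5.14% in KLK10, 10.8% in KLK5, 22.2% in KLK6 and 40.1% in KLK8. The search took both strands, and for KLK5 and KLK6 the only other gene was an antisense long noncoding RNA gene. In KLK8 a readthrough gene model on the same strand covers 40.1% of the exon bases and KLK9 covers 10.9%, and both of these models were listed at 0 counts in all samples. All 1933 exon bases of the readthrough model lie within KLK8 or KLK9, and featureCounts by default drops reads that hit more than 1 gene, so this 0 does not show that KLK8 reads were free of the overlap. Antisense long noncoding RNA genes cover 20.3% of the exon bases of KLK6, 12.2% of those of KLK5 and 6.32% of those of KLK10. The kit kept strand but the counting is not stated to use it. If counting ignored strand, reads in these overlaps would by the same default be dropped from KLK5, KLK6 and KLK10. Their levels could then be too low. The antisense genes themselves were listed at 0 counts in all samples.

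The libraries held between 35360458 and 39640775 assigned counts, and the replicates of a group differed from each other by more than sampling noise (chi-square per degree of freedom of 1.81 to 4.11 over 15525 genes). The genes that mark ovarian carcinoma of Müllerian type were present. PAX8 held 10592 to 12233 counts, SOX17 3405 to 3845 and MSLN 2519 to 2861, while WT1, another marker of that list, had at most 2 counts in any sample. PAX8 rose slightly after Olaparib (log2 fold change 0.10, adjusted p = 0.0400, edgeR's quasi-likelihood test, Benjamini-Hochberg method), and it was 1 of 6 tested markers of that list to pass, while 3.36% of all genes tested passed. Of the 6, 3 were higher and 3 lower after Olaparib, with a median log2 fold change of 0.00065. The lower ones were MSLN (-0.03), FOLR1 (-0.04) and WFDC2 (-0.15, adjusted p = 0.496, edgeR). WFDC2 had all Olaparib samples below all DMSO samples, and groups did not overlap in 19.3% of all genes. The list's summed normalised count ran from 20250 to 21190 after Olaparib and from 19160 to 20110 in DMSO, and PAX8 gave most of it. Among 8 epithelial markers CLDN4, a tight junction protein, was the 1 that passed (0.14, adjusted p = 0.0271), and 6 of the 8 had an unadjusted p under 0.05. DESeq2 called 2 of the 8, limma voom 3 and the fit with a replicate block 6, between 0 and 5 were called with 1 sample left out, and the list's sum lay from 480700 to 505900 after Olaparib and from 474500 to 491300 in DMSO. PAX8 and CLDN4 changed by less than the fold threshold of 1.2 used below and had adjusted p of up to 0.206 and 0.175 in alternative fits. Markers of other cell types were mostly low. Stratified keratinocytes are the best known source of KLK5 and KLK7. Their 7 markers had summed counts of 45.7 to 72.9 after Olaparib and 37.0 to 42.9 in DMSO, ranges that did not overlap. LORICRIN was at 0, KRT5 at 9 to 28 and TP63 at 18 to 36 counts. All 3 tested markers were higher after Olaparib (median log2 fold change 0.71), and 0 passed by edgeR. Of the 3, 1 had an unadjusted p under 0.05, limma voom called 0, and DESeq2 gave no adjusted p for the 3. The fibroblast collagen genes COL1A2 and COL1A1 were present, with 1344 to 1557 and 237 to 328 counts. Leukocyte and fibroblast lists had 0 calls of 4 and 0 of 2 tested genes by edgeR, with 0 at an unadjusted p under 0.05 in both and 0 called by limma voom or by DESeq2, which gave 3 of the leukocyte genes no adjusted p, LUM at 0 and summed counts that overlapped between the groups (1642 to 1847 after Olaparib and 1712 to 1840 in DMSO for fibroblast genes, 90.5 to 100.5 and 69.6 to 101.4 for leukocyte genes). Of 4 endothelial markers PECAM1 was at 0, CDH5 held 1457 to 1772 counts, the summed counts were 1659 to 1706 after Olaparib and 1688 to 1804 in DMSO, and VWF rose (0.68, adjusted p = 0.0106, 0.0710 by DESeq2). VWF was 1 of 3 tested genes of this list to pass, beside 3.36% of all genes tested. KDR was higher (0.30, adjusted p = 0.237, edgeR) and CDH5 lower (-0.07, adjusted p = 0.442, edgeR), each with groups that did not overlap. The part of these small marker shifts in the kallikrein values was not tested.

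The 6 kallikreins were expressed at very different levels, and KLK6 and KLK10 made up nearly all of the signal. Together the members received 1736 counts over the 6 libraries, or 6.91 to 8.29 CPM in a sample (counts scaled to library size), and 93.5% of these were from KLK10 and KLK6. KLK10 gave 52.6% to 61.8% of the member counts in a sample and KLK6 gave 31.9% to 40.5%. KLK5 had 10 to 22 counts per sample, KLK7 and KLK8 had 0 to 6, and KLK11 had 1 count in 1 of 6 libraries. Thus 3 of the 6 genes were above 3 counts in every sample.

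Levels of different genes were set side by side as CPM per kilobase of exon. On this scale KLK6 was first with 1.43 ± 0.152 (SD, n = 6), between 1.19 and 1.58, and KLK10 was second with 1.16 ± 0.107, between 1.07 and 1.36. The ranges of these neighbours overlapped. Within samples KLK6 was above KLK10 in all but Olaparib replicate 2 (1.345 against 1.356), and in every sample by the lengths of canonical transcripts. Without division by length KLK10 came first (4.40 against 2.82 CPM), so their order rests on the lengths used, and it was not tested. KLK5 followed with 0.207 ± 0.0733, between 0.164 and 0.349. All 6 KLK5 values lay under all 6 KLK10 values. Next were KLK8 with 0.0433 ± 0.0249 and KLK7 with 0.0305 ± 0.0183. Both lay under KLK5 in every sample and overlapped each other. If reads in the overlap with the readthrough model were dropped, the KLK8 level would be too low. KLK11 closed the order at 0.00145. Among the 21729 genes that passed the filter on low counts, 49.6% were lower than KLK6, 47.2% lower than KLK10, 26.4% lower than KLK5, 8.88% lower than KLK8 and 6.49% lower than KLK7. The leading kallikreins were thus mid-range transcripts of this line and KLK7, KLK8 and KLK11 were at its floor.

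**Figure D1:**
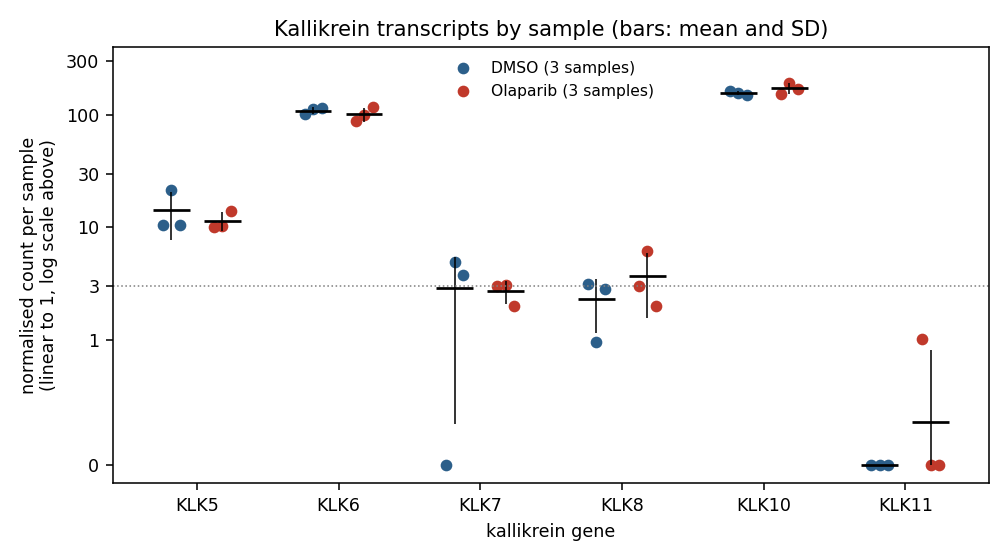
Normalised count of each kallikrein (x axis) in each of the 3 DMSO samples (blue) and 3 Olaparib samples (red), on a y axis that is linear up to 1 and logarithmic above it. Thick bars are group means, thin bars 1 SD, and the dotted line marks 3 counts. KLK6 and KLK10 sit between 88.1 and 193, KLK5 between 10.1 and 21.6, and the other members around or under 6, with the groups overlapping in each gene.

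No kallikrein passed the test between Olaparib and DMSO. With p-values from edgeR adjusted by the Benjamini-Hochberg method over all 21729 genes, 0 of the 5 members tested were under 0.05, against 3.36% of all genes tested. With a fold threshold of 1.2 added, 0 of 5 were called against 1.21% of all genes. At an unadjusted p under 0.05 there were also 0 of 5, and limma voom called 0 and so did DESeq2, which gave 3 of the 5 no adjusted p, and both had 0 at that unadjusted level. The share of all genes at that unadjusted level is not given here. Counts at that level, in this list and the others, therefore have no background to be read against. In none of the 5 did the groups fail to overlap, a pattern that 19.3% of all genes showed. KLK8 and KLK10 had higher means after Olaparib and KLK5, KLK6 and KLK7 lower ones. The median log2 fold change of these 5 was -0.11, beside -0.0042 for all genes tested, and the single gene KLK6 sets it. KLK11 did not pass the filter of more than 10 counts in total and was not tested. RNA was taken from whole cultures, so fewer cells that make a kallikrein and less of its RNA per cell cannot be told apart.

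KLK10, first described as a gene of normal epithelial cells that is often lost in breast tumour lines, had the most counts. Its normalised counts were 155, 193 and 170 in Olaparib replicates 1, 2 and 3, and 164, 156 and 152 in DMSO replicates 1, 2 and 3. Olaparib replicate 2 was the highest of the 6, replicate 3 also lay above all DMSO samples, and replicate 1 fell among the DMSO samples. The means were 173 ± 19.1 and 157 ± 6.35 (SD, n = 3 each). The log2 fold change was 0.13 with SE 0.10 and a 95% interval of -0.07 to 0.34, or 0.952-fold to 1.27-fold (adjusted p = 0.593, edgeR). The relative spread was 11.1% of the mean after Olaparib and 4.04% in DMSO, beside 7.79% that counting alone would give at this depth.

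KLK6, a trypsin-like enzyme that is also made in the nervous system and has been measured in ovarian cancer serum, was the second by counts. Its normalised counts were 88.1, 99.5 and 117 in the Olaparib samples and 101, 113 and 115 in the DMSO samples, in replicate order. The lowest and the highest of the 6 values both came from Olaparib samples and enclosed the whole DMSO group. The means were 102 ± 14.7 and 110 ± 7.18 (SD, n = 3 each), with a log2 fold change of -0.11, SE 0.13 and a 95% interval of -0.37 to 0.15 (0.776-fold to 1.11-fold, adjusted p = 0.759, edgeR). The ratio of KLK10 to KLK6 counts lay at 1.45 to 1.94 after Olaparib and at 1.32 to 1.62 in DMSO. These ranges overlapped.

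For these leading kallikreins the depth limits what could have been seen. Of 1396 tested genes with a mean normalised count between 84.5 and 198, 39 were called (2.79%), and the smallest change called among them was 0.33 on the log2 scale. The intervals of KLK6 and KLK10 leave room for changes of about that size in 1 direction each, down for KLK6 and up for KLK10.

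KLK5, a trypsin-like enzyme that starts the protease cascade of the outer skin by activating itself and KLK7, was the third member with signal in every sample. It had 10.1, 10.3 and 13.9 normalised counts after Olaparib and 10.5, 21.6 and 10.4 in DMSO. DMSO replicate 2 stood above the other 5 samples, which lay close together. The means were 11.4 ± 2.15 and 14.2 ± 6.43 (SD, n = 3 each), with a log2 fold change of -0.31, SE 0.35 and a 95% interval of -1.02 to 0.41 (adjusted p = 0.761, edgeR). Without DMSO replicate 2 the log2 fold change was 0.13. Summed over the libraries, Olaparib had 0.807 times the KLK5 counts of DMSO, with a 95% interval of 0.499 to 1.30 that covers counting error only.

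KLK7, the chymotrypsin-like enzyme that loosens the outermost cells of skin, was detected at the floor. Its raw counts were 3, 3 and 2 after Olaparib and 0, 5 and 4 in DMSO. The DMSO samples held both the lowest and the highest value. The fitted log2 fold change was -0.13 with SE 0.74 (95% interval -1.65 to 1.38, adjusted p = 0.958, edgeR), and the ratio of summed counts was 0.908 with a counting interval of 0.305 to 2.65. The direction depended on single libraries, since the log2 fold change was 0.04 without Olaparib replicate 3, 0.42 without DMSO replicate 2 and 0.09 without DMSO replicate 3.

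KLK8, also called neuropsin, is a trypsin-like enzyme of skin and brain. It had 3, 6 and 2 counts after Olaparib and 3, 1 and 3 in DMSO. Only Olaparib replicate 2 exceeded all DMSO samples, and Olaparib replicate 3 was under 2 of them. The log2 fold change was 0.65 with SE 0.70 (95% interval -0.77 to 2.08, adjusted p = 0.741, edgeR), and the ratio of summed counts was 1.60 with a counting interval of 0.568 to 4.88. The interval of KLK7 spans 2-fold changes in both directions and that of KLK8 a 2-fold rise.

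KLK11, a trypsin-like enzyme of epithelia and of the prostate, gave a single count, in Olaparib replicate 1. The 3 DMSO libraries were at 0, which allows up to 0.0757 to 0.0848 CPM in a library (3 counts of its total, for counting error only), and no fold change is given. KLK10 is its direct neighbour in the cluster and received 988 counts in the same libraries.

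Summed over the 6 members, the normalised counts were 260, 312 and 305 after Olaparib and 279, 296 and 283 in DMSO. The Olaparib samples again held both the lowest and the highest sum. The means were 292 ± 28.1 and 286 ± 8.82 (SD, n = 3 each), which differ by less than the spread of the Olaparib samples.

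The other kallikreins show that expression in this cluster was restricted to a few genes. Of 10 further family members, 6 (KLK1, the tissue kallikrein, KLK2, KLK4, KLK9, KLK12 and KLK15) had 0 counts in all samples, and the 10 together had 15 counts. KLK3, which encodes prostate-specific antigen, had 2 counts in DMSO replicate 3 and 0 elsewhere. KLK13 had 1 count in Olaparib replicate 3, and the pseudogene KLKP1 had 1 count in Olaparib replicate 1 and 1 in DMSO replicate 1. KLK14, an enzyme of skin that can be activated by KLK5, had 1, 1 and 2 counts after Olaparib and 1, 0 and 5 in DMSO. None of the 10 passed the filter on low counts. The 0 of KLK9 says little about its expression, since 96.3% of its exon bases lie within the readthrough model.

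The cluster from KLK1 to KLK14 is 265 kb long, from 50819146 to 51084245 on chromosome 19. Apart from kallikreins it holds 8 gene models, all with at most 3 counts in every sample. Within 500 kb on either side and inside the cluster, 86 genes other than kallikreins were listed and 19 were tested. By edgeR 0 rose and 0 fell, 2 had an unadjusted p under 0.05, limma voom also called 0 and DESeq2 called 0 but gave no adjusted p for 8 of the 19, and the median log2 fold change was 0.02. By the same edgeR test 2.15% of all genes rose and 1.21% fell. The most abundant was C19orf48P, next to the KLK1 end, with a mean of 3447 normalised counts and a difference of 0.08 on the log2 scale (adjusted p = 0.289, edgeR). POLD1, the catalytic subunit of DNA polymerase delta, and EMC10, part of a membrane protein complex, were the next by counts. KLK5, KLK6 and KLK10 thus stood between genes with few or no counts.

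**Figure D2:**
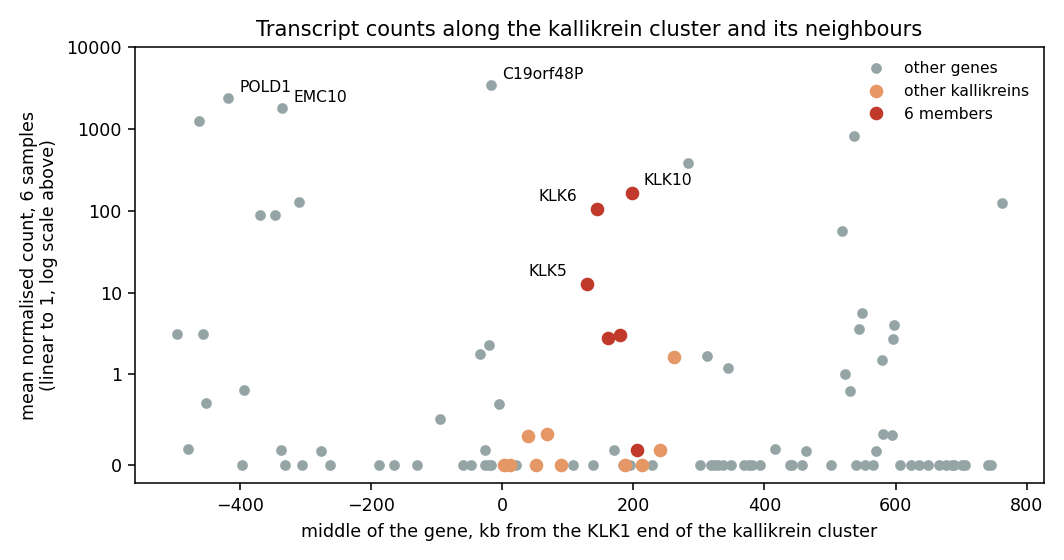
Mean normalised count over the 6 samples (y axis, linear up to 1 and logarithmic above) for every gene model in and near the kallikrein cluster, by the distance of its middle from the KLK1 end in kb (x axis). Red points are the 6 members, orange points the other kallikreins, grey points other genes. KLK5, KLK6 and KLK10 rise out of a stretch in which most models are at or near 0, while C19orf48P reaches 3447 beside the cluster.

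Of 10 proteases that can activate or accompany kallikreins, several were more abundant than KLK6 per length and others were at or near 0. In this list 6 genes were tested, 1 rose and 0 fell, with a median log2 fold change of 0.04, beside 2.15% of all genes tested that rose and 1.21% that fell. PLAU, the urokinase plasminogen activator, had the highest level of the list at 274 CPM per kilobase, and ST14, which encodes matriptase, had 105. PRSS8 (prostasin) had 35.6, while KLK6 had 1.43 on the same scale. TMPRSS4, a membrane-bound serine protease, was the gene that rose, with 1919, 1936 and 1785 normalised counts after Olaparib and 1521, 1652 and 1633 in DMSO. All Olaparib samples lay above all DMSO samples. Its means were 1880 ± 82.4 and 1602 ± 70.8 (SD, n = 3 each) and its log2 fold change was 0.23 with SE 0.044 (adjusted p = 0.00140, edgeR), which is under the fold threshold of 1.2, or 0.263 on the log2 scale. PLAT, the tissue plasminogen activator, was at 1.96 CPM per kilobase, above KLK6. HPN, the protease hepsin, was at 0.242, below KLK6 and KLK10. Plasminogen (PLG), TMPRSS2, prothrombin (F2) and plasma prekallikrein (KLKB1) had 3 counts or fewer in every sample.

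Among inhibitors of serine proteases the kallikrein-directed SPINK genes were at the floor, and members of other inhibitor families were abundant. Of 14 inhibitor genes 7 were tested, 2 rose and 0 fell (2.15% and 1.21% of all genes tested), with a median log2 fold change of 0.16. SPINK5, which encodes the skin inhibitor LEKTI that blocks KLK5 and KLK7, had at most 1 count in any sample, as did SPINK1 and SPINK9, and SPINK6 was at 0. SERPINA3, SERPINA4 (kallistatin) and SERPINA5 (protein C inhibitor) were at 0 as well. SLPI, the secretory leukocyte protease inhibitor, reached 254 CPM per kilobase, SPINT2 109 and SPINT1 34.1, the last pair being inhibitors of matriptase and hepsin.

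The 2 inhibitors that rose are best known as inhibitors of neutrophil elastase. PI3, which encodes elafin, had 646, 738 and 678 normalised counts after Olaparib and 552, 537 and 525 in DMSO. The groups were fully separate. The means were 687 ± 46.6 and 538 ± 13.5 (SD, n = 3 each), with a log2 fold change of 0.35 and SE 0.054 (adjusted p = 7.03e-05, edgeR). SLPI had 5744, 6016 and 6163 normalised counts after Olaparib and 5328, 5336 and 5349 in DMSO. Here too every Olaparib sample was above every DMSO sample. The log2 fold change of SLPI was 0.16 with SE 0.032 (adjusted p = 0.00201, edgeR), smaller than the fold threshold of 1.2. PI3, SLPI and TMPRSS4 had adjusted p under 0.05 in all 13 alternative fits, up to 0.00234, 0.0339 and 0.0192 in that order.

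Substrates and receptors of kallikreins did not pass the test. Of 13 genes 9 were tested, and 0 rose and 0 fell by edgeR, with 2 at an unadjusted p under 0.05, 0 called by limma voom and by DESeq2 (no adjusted p for 2), and a median log2 fold change of 0.05. Among all genes tested, 2.15% rose and 1.21% fell. FN1, the matrix protein fibronectin, was the most abundant of the list at 305 CPM per kilobase. L1CAM, an adhesion protein that KLK6 and other proteases can shed, was at 30.2. F2RL1, which encodes the protease-activated receptor PAR2, was at 13.2. CDH1, the adhesion protein E-cadherin that is lost from the surface when it is cut, differed by 0.14 on the log2 scale (adjusted p = 0.0687, edgeR), and F2R, the thrombin receptor PAR1, by 0.26 (adjusted p = 0.275). CDH1, F2R and F2RL1 had all Olaparib samples above all DMSO samples in normalised counts, and none of the 3 passed. Groups did not overlap in 19.3% of all genes. The desmosomal skin substrates DSG1 and DSC1 had at most 3 counts in any sample, and so did the antimicrobial peptide gene CAMP and the receptor gene F2RL2.

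Steroid and related nuclear receptors were included because several kallikreins are hormone-regulated. Of 7 genes 5 were tested, and 0 rose and 0 fell by edgeR, with 1 at an unadjusted p under 0.05, 0 called by limma voom and by DESeq2 (no adjusted p for 1), and a median log2 fold change of 0.05. The shares over all genes tested were 2.15% for rises and 1.21% for falls. VDR, the vitamin D receptor, was the highest at 7.47 CPM per kilobase. The estrogen receptor gene ESR1 had 0, 1 and 0 counts after Olaparib and 4, 5 and 0 in DMSO, and the progesterone receptor gene PGR had at most 1 count in any sample. Neither gene passed the filter on low counts, so neither was tested. With no filter on low counts, ESR1 had an adjusted p of 0.323 (edgeR).

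**Figure D3:**
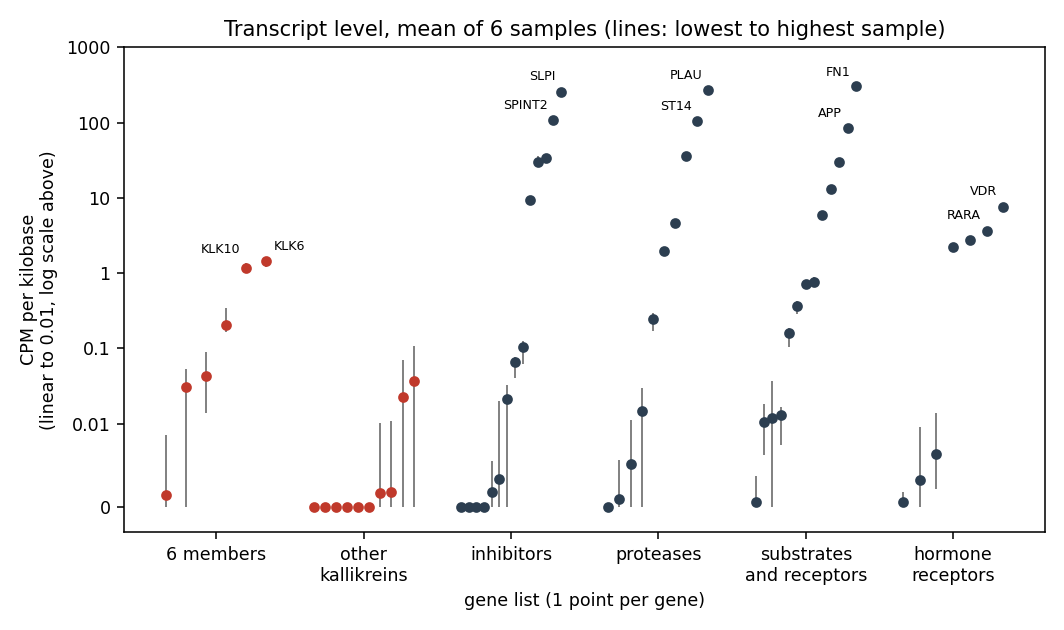
Mean level over the 6 samples in CPM per kilobase of exon (y axis, linear up to 0.01 and logarithmic above), 1 point per gene, for the 6 members, the other kallikreins and the 4 further gene lists. Grey lines run from the lowest to the highest sample. KLK6 and KLK10 reach 1.43 and 1.16, while SLPI, PLAU and FN1 reach 254, 274 and 305.

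**Figure D4:**
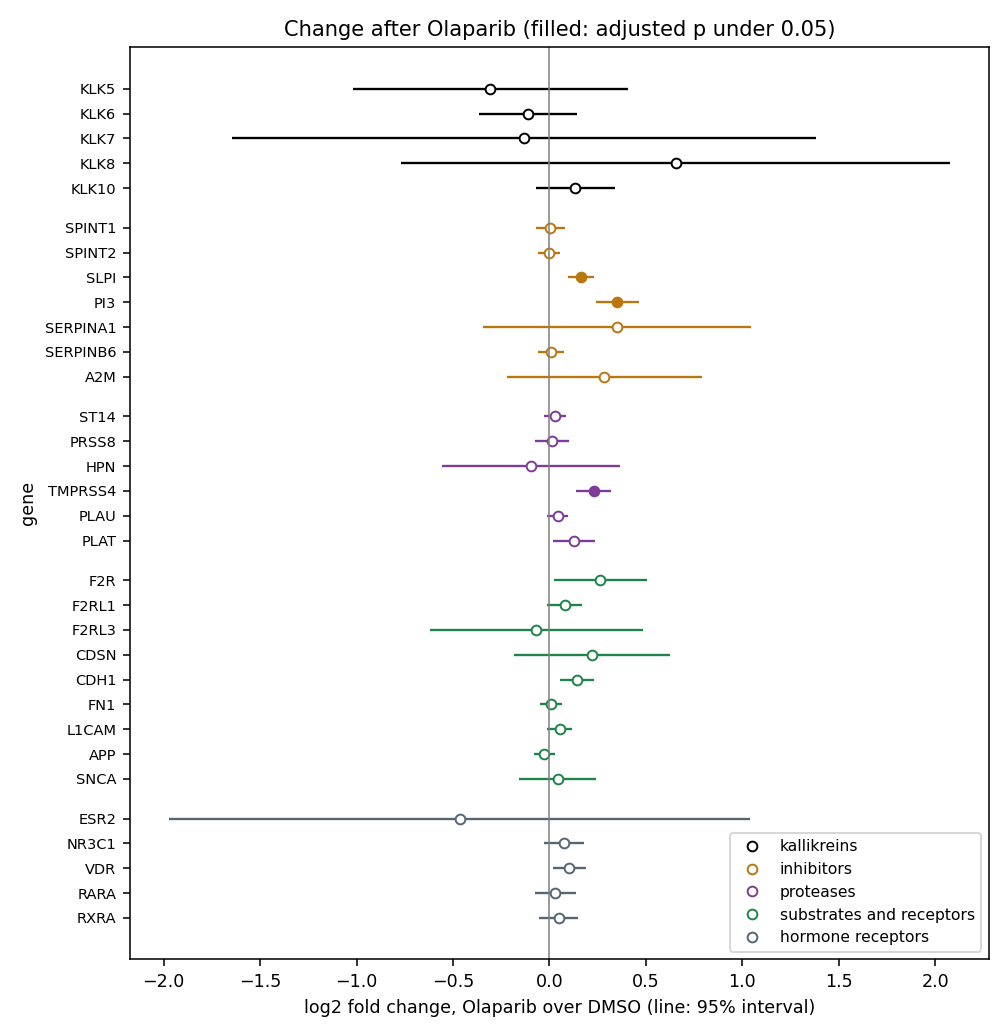
Log2 fold change of Olaparib over DMSO (x axis) with its 95% interval from edgeR, for the 5 kallikreins tested and every tested gene of the 4 further lists (y axis). Filled points have an adjusted p under 0.05 and are PI3, SLPI and TMPRSS4. The intervals of all 5 kallikreins cross 0, and those of KLK7 and KLK8 are the widest among the kallikreins.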

How the data were processed

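Polyadenylated RNA of 6 UWB1.289 samples was sequenced, 3 replicates per condition that the study's methods call independent. All are of 1 cell line, and p-values measure the spread between these samples. The authors trimmed reads with Trimmomatic, aligned them with STAR to hg38 and counted them with featureCounts. The deposited values are raw counts for each gene, in whole numbers. Picard marked duplicates, but their removal and the strand setting are not given in the sources used here. Intervals on counts cover counting error only, and if PCR duplicates were kept they would be too narrow even for that.

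Here, counts were scaled by TMM factors, genes with more than 10 counts in total were kept, and edgeR 4.0.16 (glmQLFit, glmQLFTest, R 4.3.3) compared Olaparib with DMSO, with Benjamini-Hochberg adjustment over 21729 genes. DESeq2 1.42.0, limma voom 3.58.1, other scalings and filters, a replicate block and leaving out each sample were alternatives. Normalised counts are counts divided by TMM-scaled depth. Levels per kilobase used merged exons of GENCODE 44, in which 81.9% of the identifiers were found. The identifiers appear older than that release, so the models used for counting may differ. Coding sequences were read from GRCh38.

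The members and lists were chosen with earlier results of these data known. Named were all kallikreins, list genes with an adjusted p under 0.05 (at most 8 a list) or with 3 counts or fewer in every sample, the 3 neighbours with the most counts and the 5 genes most correlated with the members. L1CAM, FN1, F2R, CDH1, F2RL1, VDR, PLAU, PLAT, HPN, ST14, PRSS8, SPINT1, SPINT2, ESR1 and the markers with given counts or fold changes were named after their values were seen. 1 further nuclear receptor gene was left out of every count and is not reported here.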

Additional observations from a re-analysis of the deposited data

How the results depend on the processing

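No alternative moved a kallikrein across the adjusted p threshold. Of 63 member values from alternative fits, 58 kept their direction and 5 did not, and the lowest adjusted p was 0.363, for KLK10 without Olaparib replicate 1. With limma voom the log2 fold change of KLK7 was 0.42 (adjusted p = 0.847), and the cause was not tested. Leaving out 1 sample at a time gave log2 fold changes of -0.50 to 0.13 for KLK5, -0.23 to -0.02 for KLK6, -0.66 to 0.42 for KLK7, 0.11 to 0.95 for KLK8 and 0.05 to 0.21 for KLK10, a median of -0.16 to 0.13, and 0 members called by either threshold. KLK5 changed direction without DMSO replicate 2, and KLK7 without Olaparib replicate 3, DMSO replicate 2 or DMSO replicate 3. The median over the members was 0.01 with no filter on low counts, when KLK11 was fitted too, and 0.13 with limma voom. The filterByExpr filter left 3 members, and DESeq2 gave no adjusted p for 3. By the lengths of canonical transcripts the order of the members was as by merged exons.

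Over all genes, 730 were called at an adjusted p under 0.05, and 398 to 870 when 1 sample was left out, with the count down by over 1.5 times without Olaparib replicate 3 (439), DMSO replicate 2 (398) or DMSO replicate 3 (401). With the fold threshold, 262 were called, 178 to 237 with 1 sample left out, 150 by DESeq2, 26 with an absolute log2 fold change above 1 and 10 with one above 1.5.

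Replicate numbers are shared by the groups. Deviations of same-numbered samples correlated at -0.153, 0.185 and -0.214 across genes, so the numbers were not taken to pair the samples. Only the samples of replicate 2 correlated best with their own number. The highest correlation was 0.371, between Olaparib replicate 3 and DMSO replicate 1. With a replicate block 1322 genes were called at an adjusted p under 0.05 and 0 kallikreins, while CDH1 had an adjusted p of 0.0297. CDH1 also passed without Olaparib replicate 2 (0.0333), and its adjusted p over all alternatives ran from 0.0297 to 0.360. Counts of 6 or fewer in KLK7, KLK8 and KLK11 limit every statement on these genes.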

Other observations

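Across the 6 samples the mean of the log2 CPM of the 5 kallikreins that passed the filter was -0.82, -0.57 and -0.76 in Olaparib replicates 1, 2 and 3, and -1.01, -0.61 and -0.71 in DMSO replicates 1, 2 and 3. The lowest value belonged to the sample without a KLK7 count. Among 13119 other genes with a mean of at least 50 normalised counts, the patterns most like this mean were those of DNAAF5 (Pearson r = 0.997), PNPLA6 (0.990), AP5B1 (0.985), RASAL1 (0.985) and CLPTM1L (0.983), over 6 samples. As a description, 161 genes had r above 0.9, and all points share library and depth. The mean gives each of the 5 kallikreins equal weight, so KLK7 and KLK8, with 0 to 6 counts per sample, weigh as much as KLK6 and KLK10. Among 13119 genes and over 6 samples, a high r can also arise by chance, which was not tested. The adjusted p of DNAAF5, PNPLA6, AP5B1, RASAL1 and CLPTM1L between the groups was 0.776 or higher by edgeR.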
